A study of Mus musculus with 18 samples.

Results

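The chemokines and chemokine receptors examined here were 9 genes, the 4 ligands *Ccl3*, *Ccl4*, *Ccl6* and *Ccl9* and the 5 receptors *Ccr2*, *Ccr7*, *Ccr9*, *Cx3cr1* and *Cxcr4*. They were taken by symbol, and all 9 were listed in each of the 3 expression tables, among 19919 genes listed in any of them. The tables hold RNA-seq of multipotent progenitors (MPPs), CD115- common dendritic cell progenitors (CD115- CDPs) and common lymphoid progenitors (CLPs) sorted from mouse bone marrow, with 3 libraries of each genotype in each population and 18 libraries in all. WT libraries came from Trim33 fl/fl mice and KO-labelled libraries from Trim33 fl/fl Cre-ERT2 mice, all of the C57BL/6 strain and 6 to 8 weeks old. Cre-ERT2 acts in all tissues once tamoxifen is given, which was a daily dose of 2 mg for 5 days and then a pause of 7 days, so cells outside the sorted populations may have lost *Trim33* too. The methods give this course for inducing the knockout. A legend of the study on the RNA-seq of these progenitors names tamoxifen-treated Trim33 fl/fl mice beside Trim33 fl/fl Cre-ERT2 mice. The part of the drug itself was not tested. All gates were lineage-negative and FLT3-positive. MPPs were also positive for CD34, CD117 and Sca-1. CD115- CDPs had intermediate CD117 and lacked CD11c, CD127 and CD115. CLPs carried CD127, CD117 and Sca-1 without CD11c. The comparison of genotypes within each population addresses which genes depend on *Trim33*, which encodes a chromatin-binding ubiquitin ligase.

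Chemokines are small secreted proteins that attract cells bearing the matching receptor, a membrane protein that signals through inhibitory G proteins to PI3 kinase, Rac and the cytoskeleton. CXCR4 holds stem and progenitor cells in the marrow by way of CXCL12, CCR2 lets monocytes leave the marrow toward CCL2, and CX3CR1 is carried by monocytes and by progenitors of macrophages and dendritic cells. CCR9 guides lymphoid progenitors to the thymus and marks plasmacytoid dendritic cells (pDCs), and CCR7 brings lymphocytes and dendritic cells to lymph nodes. CCL3 and CCL4 are inflammatory chemokines, and CCL6 and CCL9 are rodent chemokines made mainly by myeloid cells.

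The 4 ligand genes lie in a single cluster on chromosome 11 (GRCm38), where the transcript of *Ccl9* ends 9245 bases from that of *Ccl6* and *Ccl3* lies 13228 bases from *Ccl4*. *Cx3cr1*, *Ccr9* and *Ccr2* lie on chromosome 9, the last pair 320211 bases apart, *Ccr7* lies on chromosome 11 and *Cxcr4* on chromosome 1. Upstream sequences in RefSeq (GRCm38.p6) were matched for 7 of the 9 genes, all but *Ccl4* and *Ccr7*. The bases before the transcription start are shown for *Ccl3* and *Ccl6*, which were lower in KO-labelled MPPs, for *Ccl9* as the neighbour of *Ccl6*, and for *Ccr9*, which was lower in KO-labelled CLPs. They are chr11:83649379-83649628 (minus strand), chr11:83593088-83593337 (minus strand), chr11:83578637-83578886 (minus strand) and chr9:123766961-123767168 (plus strand), each 5′ to 3′ on the strand of its gene. The stretch of *Ccr9* stops before the first base of an annotated exon, and those of *Ccr2* and *Cx3cr1* are not shown because annotated exons cover most or all of them. Capitals mark, in *Ccl3*, the PU.1 core GAGGAA and the IRF motif GAAANNGAA, which overlap and both lie on the other strand, and in *Ccl9* the AP-1 motif TGANTCA.
Ccl3: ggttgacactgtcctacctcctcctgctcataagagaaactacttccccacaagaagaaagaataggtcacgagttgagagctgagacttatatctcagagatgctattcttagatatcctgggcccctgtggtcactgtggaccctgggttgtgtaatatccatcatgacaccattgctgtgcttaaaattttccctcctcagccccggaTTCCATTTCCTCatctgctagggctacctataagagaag
Ccl6: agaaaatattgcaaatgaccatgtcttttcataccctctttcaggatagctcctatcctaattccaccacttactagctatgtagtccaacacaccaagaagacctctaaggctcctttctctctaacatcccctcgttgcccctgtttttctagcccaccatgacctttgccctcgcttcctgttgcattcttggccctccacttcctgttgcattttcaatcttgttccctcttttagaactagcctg
Ccl9: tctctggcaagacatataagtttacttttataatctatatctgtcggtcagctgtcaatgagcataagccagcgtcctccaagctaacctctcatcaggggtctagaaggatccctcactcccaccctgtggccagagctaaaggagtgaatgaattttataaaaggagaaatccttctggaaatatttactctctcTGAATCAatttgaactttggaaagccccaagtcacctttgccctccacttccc
Ccr9: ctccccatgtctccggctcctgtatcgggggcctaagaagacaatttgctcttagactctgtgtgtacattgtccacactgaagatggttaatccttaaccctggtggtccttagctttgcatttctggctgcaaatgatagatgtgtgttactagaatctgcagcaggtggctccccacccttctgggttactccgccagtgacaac
In the 250 bases before the start, on either strand, GAGGAA was found in 1 of the 7 genes, against 23.3% of 32851 upstream windows in RefSeq, and TGANTCA in 1 of 7 against 6.75%. GAAANNGAA was found in *Ccl3* and *Ccr2*, against 7.13% of all windows. The composite ETS-IRF motif GGAANNGAA, which can overlap that of IRF, was in *Ccr2* and in 6.99% of all windows, and the C/EBP motif TTGCNNAA was in 0 of the 7 against 9.56%. In *Ccr2* an annotated exon starts after 17 of the 250 bases, and its matches of both motifs lie beyond that point. TATAAA, not put in capitals, was found in *Cxcr4* and *Ccl9*, and in 12.4% of all windows. These are matches of letters and not measured binding sites.

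Values are FPKM, which are scaled to transcript length and so allow levels of different genes to be compared within a library, and 3 values of a group are given in the order of its replicates 1, 2 and 3. The steps between low values placed the depth at 19.3 to 21.3 M reads per library, and at that depth the lowest value of any of the 9 genes, *Ccl6* in CLP KO 1, rests on about 12 reads. *Trim33* itself was 10.4, 10.1 and 8.78 FPKM in WT MPPs and 9.71, 11.7 and 4.80 FPKM in KO-labelled MPPs. Its genotypes also overlapped in CD115- CDPs (8.27 to 15.2 FPKM in WT and 4.03 to 9.64 in KO-labelled libraries) and in CLPs (7.01 to 12.4 and 5.60 to 7.66). A gene-level value can include reads of exons that a deletion leaves, so it does not check the deletion, and its extent was not tested. The libraries are therefore named as labelled. By qPCR the study reports efficient deletion of *Trim33* in lineage-negative marrow cells after the tamoxifen course, which are not the cells of these libraries. A legend of the study also names a Western blot of TRIM33 in lineage-negative and in lineage-negative FLT3-positive marrow cells after tamoxifen. In CD115- CDPs both replicate 3 libraries stood apart: the summed level of 10 neutrophil genes was 4520 and 4447 FPKM there against 695 to 1064 FPKM in the other 4, and *Csf1r*, which encodes CD115, was 39.1 to 137 FPKM in the WT libraries of this CD115- gate. In MPPs, the library KO 3 stood apart, since leaving it out raised the genes called lower from 163 to 548 and those called higher from 20 to 368. In bulk libraries, fewer cells of a type and less RNA per cell cannot be told apart.

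In MPPs the KO-labelled libraries had less RNA of the ligands *Ccl3* and *Ccl6* and of the receptor *Ccr2*. These 3 of 9 genes were called lower (an adjusted p up to 0.05 in limma together with a log2 fold change of 1 or more in size), against 1.32% of all genes tested, and 0 of 9 were called higher, against 0.162%. For 6 of the 9 every KO-labelled value was below every WT value, against 23.3% of all genes. The median log2 fold change of the 9 was -0.96, and that of all genes -0.11. In CD115- CDPs 0 of 9 were called lower and 0 higher, against 0.0654% and 0.0409% of all genes, at an unadjusted p under 0.05 for 1288 of 12229 genes. With the replicate number as a block *Ccr2* and *Cx3cr1* were called lower, 2 of 9 against 1.46%. In none of the 9 did the genotypes separate fully there, against 10.6% of all genes that lay lower throughout and 7.68% that lay higher throughout. In CLPs the receptors *Ccr9* and *Cx3cr1* were called lower, 2 of 9 against 2.84%, and 0 of 9 higher, against 0.673%. For 6 of 9 every KO-labelled value was below every WT value in CLPs, against 18.6% of all genes. All 9 genes passed the expression filter in every population. The median log2 fold change of the 9 was -0.64 in CD115- CDPs and -0.57 in CLPs, beside -0.07 and 0.01 for all genes.

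**Figure D1:**
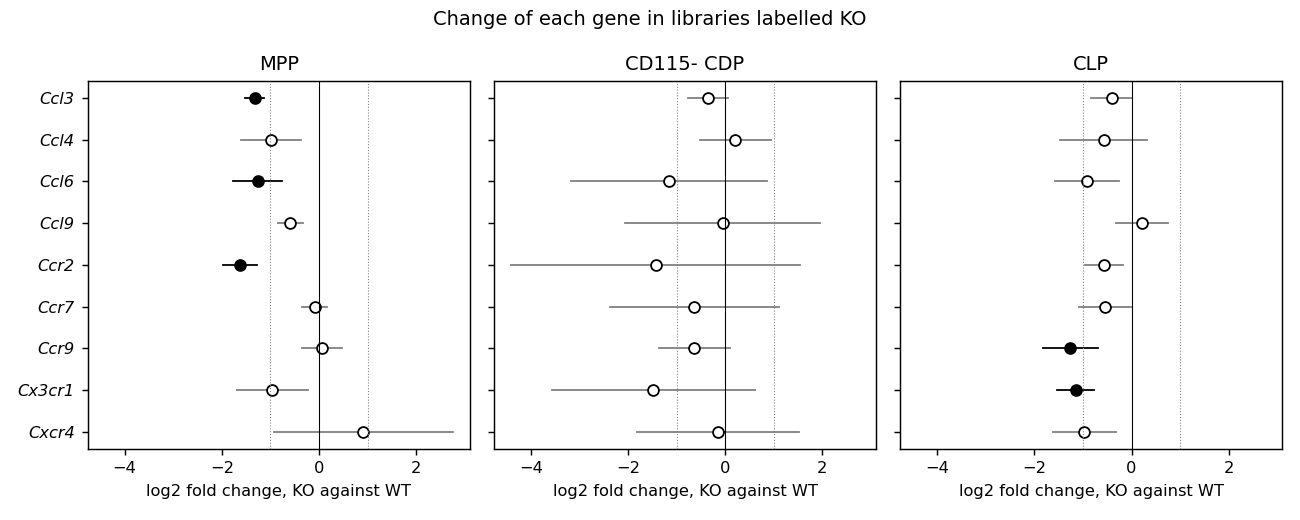
Log2 fold change of KO-labelled against WT libraries on log2(FPKM + 1) for each of the 9 genes (rows), 1 panel per population, with bars for the 95% interval of limma. Filled points were called, dotted lines mark an absolute log2 fold change of 1, and *Ccl3*, *Ccl6* and *Ccr2* are filled in MPPs, *Ccr9* and *Cx3cr1* in CLPs.

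*Ccl3* had the highest level of the 9 genes in WT MPPs. It was 457, 438 and 437 FPKM in the WT libraries and 194, 171 and 166 FPKM in the KO-labelled libraries of MPPs. The groups were far apart compared with the spread within each, and the mean fell from 444 ± 10.9 (SD, n = 3) to 177 ± 15.1 FPKM, which is -1.33 ± 0.083 (SE) on the log2 scale, with an adjusted p of 0.0018 in limma. In CD115- CDPs *Ccl3* was 295, 212 and 222 FPKM in WT and 168, 179 and 216 FPKM in KO-labelled libraries, where the highest KO-labelled value lay above the lowest WT value. In CLPs it was 143, 144 and 138 FPKM in WT and 77.2, 115 and 135 FPKM in KO-labelled libraries. All CLP values of the KO-labelled libraries were lower, but the difference of -0.41 in log2 units (95% interval -0.83 to 0.01) reached an adjusted p of 0.182. The log2 fold change was -0.36 in CD115- CDPs (95% interval -0.78 to 0.05), with an adjusted p of 0.520. The WT levels did not overlap between any pair of populations, and the WT mean in MPPs was 3.13 times that in CLPs.

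*Ccl4*, the neighbour of *Ccl3*, was 284, 285 and 276 FPKM in WT MPPs and 184, 171 and 89.6 FPKM in KO-labelled MPPs. The KO-labelled values were all below the WT values, with the lowest in KO 3, and the log2 fold change was -0.99 ± 0.26 with an adjusted p of 0.093, which is not a call. Without KO 3 it was -0.66 with an adjusted p of 0.0012, over alternatives that ranged from 0.0012 to 0.303. In CD115- CDPs *Ccl4* was 218, 138 and 109 FPKM in WT and 179, 222 and 128 FPKM in KO-labelled libraries, which overlapped throughout, with a log2 fold change of 0.21 (95% interval -0.53 to 0.95). In CLPs it was 105, 201 and 214 FPKM in WT and 61.1, 124 and 179 FPKM in KO-labelled libraries. Each KO-labelled CLP library was below the WT library of its own number, at 0.584, 0.617 and 0.836 of it, while the groups overlapped. The adjusted p in CLPs was 0.375, and 0.014 with the replicate block, at a log2 fold change of -0.57 that is below the size needed for a call.

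*Ccl6*, a chemokine of macrophages and granulocytes, was 13.7, 13.8 and 14.1 FPKM in WT MPPs and 7.49, 3.86 and 4.83 FPKM in KO-labelled MPPs. The WT values were close together and all KO-labelled values were below them. The log2 fold change was -1.26 ± 0.21, with an adjusted p of 0.030. The call was lost without WT 1, WT 2, WT 3 or KO 2 (adjusted p of 0.167, 0.165, 0.154 and 0.068) and without the expression filter (0.061), at log2 fold changes of -1.48 to -1.08 over all alternatives. In CD115- CDPs *Ccl6* was 5.51, 3.7 and 39.6 FPKM in WT and 2.77, 2.45 and 7.59 FPKM in KO-labelled libraries. The replicate 3 libraries were the highest of each genotype, and the log2 fold change of -1.16 (95% interval -3.17 to 0.85) was not called, with an adjusted p of 0.688, or 0.075 with the block. Without WT 3 it was -0.20, and on leaving out the other libraries 1 at a time it lay between -1.76 and -0.92. In CLPs it was low, at 2.47, 4.21 and 3.55 FPKM in WT and 0.44, 1.6 and 2.25 FPKM in KO-labelled libraries. The CLP groups did not overlap, and the log2 fold change was -0.92 ± 0.29 with an adjusted p of 0.071. Without WT 1 it was -1.08 and without KO 3 -1.17, both called with an adjusted p of 0.049 and 0.048, and without KO 1 it was -0.58 with an adjusted p of 0.127, over alternatives from 0.0069 to 0.230.

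*Ccl9* lies next to *Ccl6* but had smaller differences. It was 28.9, 31.2 and 33.4 FPKM in WT MPPs and 22.1, 19.9 and 19.3 FPKM in KO-labelled MPPs. The groups did not overlap, and the adjusted p of 0.036 passed, but the log2 fold change of -0.59 ± 0.10 was below the size needed for a call. In CD115- CDPs it was 12.6, 10.9 and 47.7 FPKM in WT and 10.6, 9.0 and 59.8 FPKM in KO-labelled libraries. Both replicate 3 libraries were several times higher than the others there, and within each number the KO-labelled value was 0.840, 0.827 and 1.25 of the WT value, with a log2 fold change of -0.05 over the groups (95% interval -2.06 to 1.95). In CLPs *Ccl9* was 5.31, 4.33 and 3.93 FPKM in WT and 3.47, 5.64 and 7.73 FPKM in KO-labelled libraries. The CLP groups overlapped, with a log2 fold change of 0.21 (95% interval -0.32 to 0.74).

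**Figure D2:**
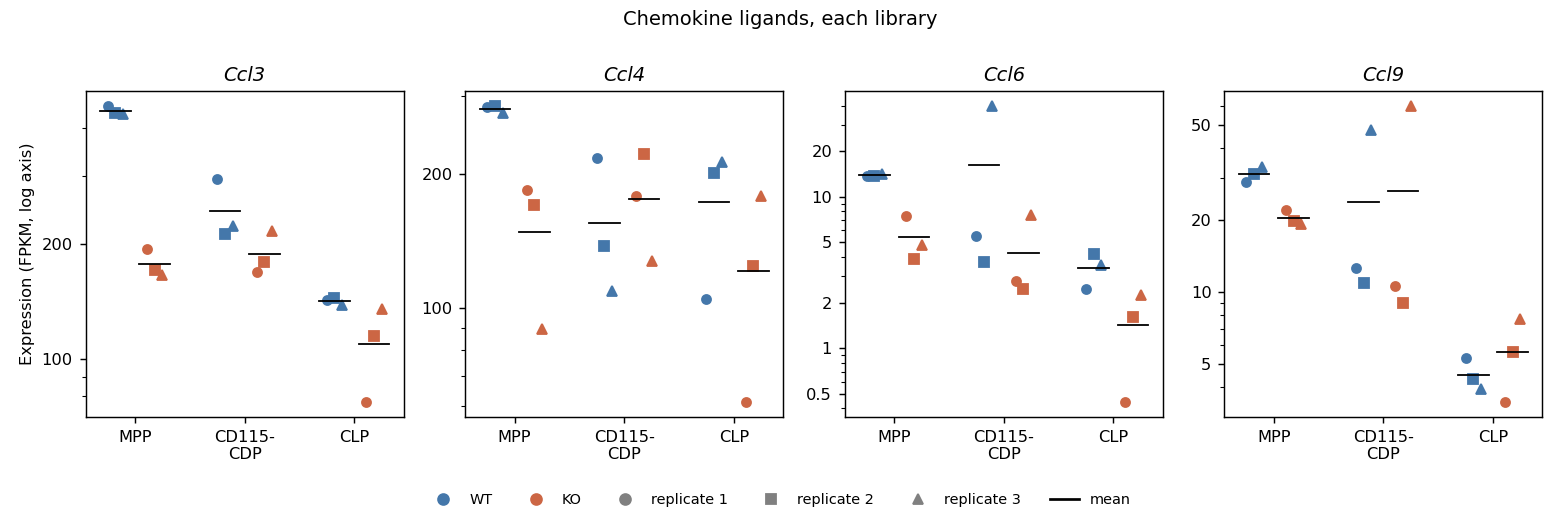
FPKM (log axis) of the 4 ligands in each of the 18 libraries, by population on the horizontal axis, with WT in blue, KO-labelled libraries in orange, a symbol for each replicate number and a line for the mean of 3. *Ccl3* in MPPs lies between 437 and 457 FPKM in WT and between 166 and 194 FPKM in KO-labelled libraries, and the replicate 3 triangles of *Ccl6* and *Ccl9* stand above the others in CD115- CDPs.

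*Ccr2*, the receptor of CCL2, was 6.39, 6.24 and 5.27 FPKM in WT MPPs and 1.07, 1.10 and 1.63 FPKM in KO-labelled MPPs. Every KO-labelled value was far below the lowest WT value. The mean fell from 5.97 ± 0.608 to 1.27 ± 0.315 FPKM, 0.212 of the WT mean, with a log2 fold change of -1.62 ± 0.15 and an adjusted p of 0.0045. In CD115- CDPs *Ccr2* was 4.64, 2.67 and 69.4 FPKM in WT and 1.72, 1.03 and 12.5 FPKM in KO-labelled libraries. The replicate 3 libraries exceeded all others, so the groups overlapped, but each KO-labelled library was 0.371, 0.386 and 0.180 of the WT library of its number. At a log2 fold change of -1.43, the adjusted p was 0.743 without the block (SE 1.24) and 0.038 with it (SE 0.29). Without WT 3 the log2 fold change was -0.11, without KO 3 it was -2.27, and without both replicate 3 libraries it was -0.95 with an adjusted p of 0.089, a choice made after seeing the data. In CLPs *Ccr2* was 2.31, 1.95 and 1.38 FPKM in WT and 0.63, 1.03 and 1.2 FPKM in KO-labelled libraries. These groups were close but did not overlap, with a log2 fold change of -0.56 ± 0.17 and an adjusted p of 0.066.

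*Cx3cr1*, the receptor of fractalkine, had values of 7.29, 7.19 and 4.97 FPKM in WT CLPs and 2.83, 2.10 and 2.13 FPKM in KO-labelled CLPs. The groups did not overlap, and the mean fell from 6.48 ± 1.31 to 2.35 ± 0.413 FPKM, with a log2 fold change of -1.15 ± 0.17 and an adjusted p of 0.0026. It was called in CLPs under all 13 alternatives that tested it. In MPPs it was 2.74, 3.12 and 2.37 FPKM in WT and 0.39, 0.61 and 2.14 FPKM in KO-labelled libraries. KO 1 and KO 2 were low and KO 3 lay just under the lowest WT library, giving a log2 fold change of -0.96 ± 0.30 with an adjusted p of 0.130. Without KO 3 it was called lower, at -1.32 with an adjusted p of 0.0012 over alternatives from 0.0012 to 0.359, where 4.43% of all genes were called lower. In CD115- CDPs *Cx3cr1* was 6.54, 3.11 and 36.4 FPKM in WT and 1.64, 1.5 and 7.07 FPKM in KO-labelled libraries. Within each number the KO-labelled value was 0.251, 0.482 and 0.194 of the WT value, while the groups overlapped through KO 3. At a log2 fold change of -1.48, the adjusted p was 0.609 without the block and 0.030 with it. Without WT 3 the log2 fold change was -0.57, and without both replicate 3 libraries it was -1.12 with an adjusted p of 0.074.

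*Ccr9*, the receptor of CCL25, was highest in CLPs, where it was 15.3, 8.61 and 13.6 FPKM in WT and 3.44, 3.98 and 6.56 FPKM in KO-labelled libraries. The groups did not overlap. The mean fell from 12.5 ± 3.48 to 4.66 ± 1.67 FPKM, 0.373 of the WT mean, with a log2 fold change of -1.26 ± 0.25 and an adjusted p of 0.012, and it was called under all 14 alternatives. In MPPs *Ccr9* was 2.29, 2.56 and 2.46 FPKM in WT and 2.37, 2.0 and 3.52 FPKM in KO-labelled libraries, which lay on both sides of the WT values. The log2 fold change in MPPs was 0.06 (95% interval -0.36 to 0.47). In CD115- CDPs it was 4.62, 5.29 and 2.13 FPKM in WT and 2.53, 2.21 and 1.57 FPKM in KO-labelled libraries. The replicate 3 libraries were the lowest of each genotype, and the log2 fold change was -0.64 (95% interval -1.37 to 0.09) with an adjusted p of 0.521, or 0.064 with the block. The WT values in CLPs, from 8.61 FPKM up, were above all WT values in CD115- CDPs, up to 5.29 FPKM, and in MPPs, up to 2.56 FPKM. The exons of *Ccr9* share 56 bases with a gene on the other strand, and the library protocol names no step that keeps strand.

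*Ccr7*, the receptor of CCL19 and CCL21, had its lowest mean of each genotype in MPPs, at 2.64, 2.47 and 2.64 FPKM in WT and 2.50, 2.41 and 2.19 FPKM in KO-labelled libraries. These values overlapped within a narrow range, with a log2 fold change of -0.09 (95% interval -0.35 to 0.17). In CD115- CDPs it was 12.4, 21.9 and 4.46 FPKM in WT and 10.3, 12.2 and 2.0 FPKM in KO-labelled libraries. In contrast to *Ccr2* and *Cx3cr1*, the replicate 3 libraries were the lowest, and KO 3 had the lowest value of all 18 libraries. The adjusted p was 0.825, or 0.055 with the block, at a log2 fold change of -0.64 (95% interval -2.37 to 1.10). In CLPs *Ccr7* was 5.19, 8.82 and 8.95 FPKM in WT and 3.65, 4.51 and 6.57 FPKM in KO-labelled libraries, where KO 3 exceeded WT 1. The log2 fold change in CLPs was -0.55 ± 0.23 with an adjusted p of 0.161, or 0.021 with the block, and is below the size needed for a call.

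*Cxcr4*, the receptor of CXCL12, had the highest WT mean of the 5 receptors in every population. In MPPs it was 42.7, 63.0 and 31.5 FPKM in WT and 163, 161 and 21.6 FPKM in KO-labelled libraries. KO 1 and KO 2 were above all WT libraries while KO 3 was below all of them, and the log2 fold change was 0.91 (95% interval -0.93 to 2.75) with an adjusted p of 0.456. Without KO 3 it was 1.86 with an adjusted p of 0.0025, and *Cxcr4* was then called higher, where 2.97% of all genes were. Without KO 1 it was 0.43 and without KO 2 0.44, with adjusted p of 0.800 and 0.808. In CD115- CDPs it was 77.9, 119 and 50.9 FPKM in WT and 120, 129 and 22.3 FPKM in KO-labelled libraries. The replicate 3 libraries were again the lowest of each genotype, and the groups overlapped, with a log2 fold change of -0.15 (95% interval -1.82 to 1.53). In CLPs *Cxcr4* was 84.2, 156 and 157 FPKM in WT and 44.7, 78.5 and 76.0 FPKM in KO-labelled libraries. All KO-labelled CLP values were below the WT values, at 0.530, 0.502 and 0.485 of the library of the same number. The log2 fold change in CLPs was -0.97 ± 0.28 with an adjusted p of 0.055, or 0.00028 with the block (SE 0.09), just under the size needed for a call. It was called after rescaling to TPM (log2 fold change -1.02, adjusted p 0.039) and without WT 1 (-1.27, adjusted p 0.010), over alternatives from 0.00028 to 0.216.

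**Figure D3:**
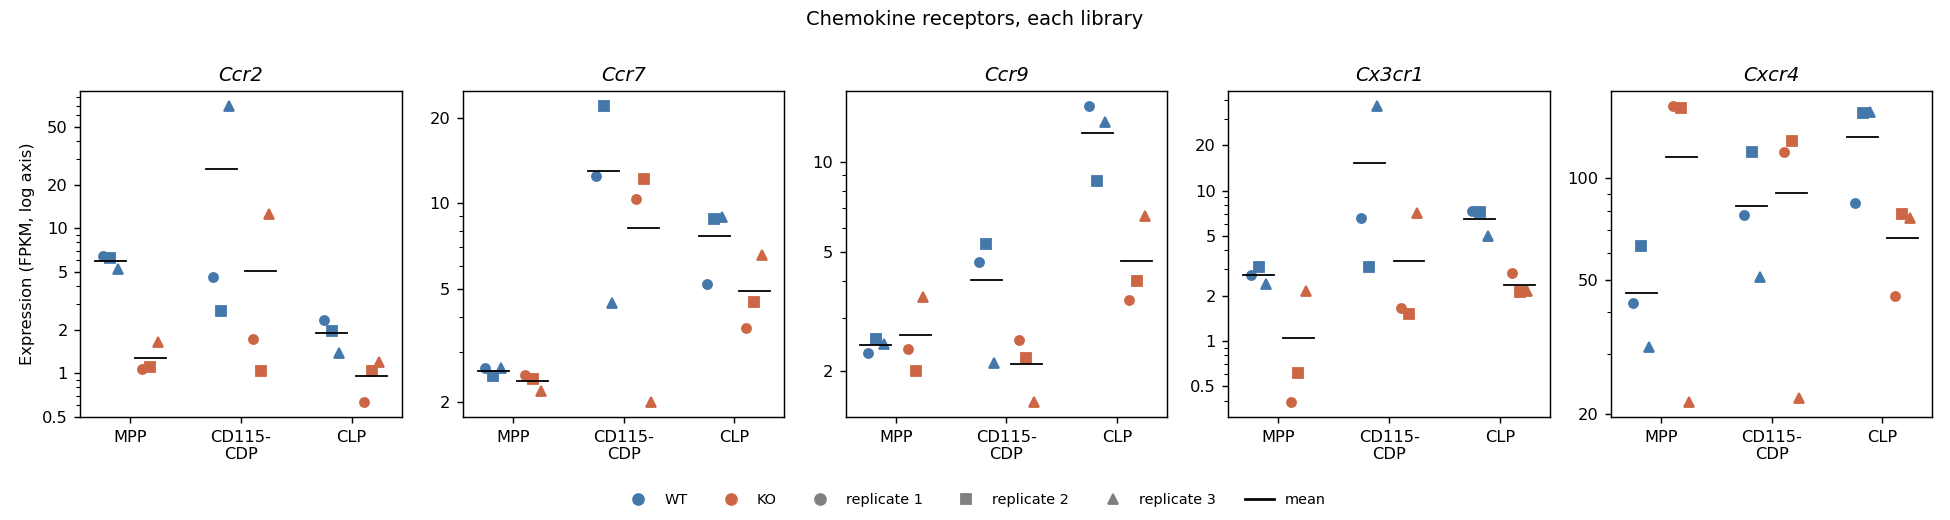
FPKM (log axis) of the 5 receptors in each of the 18 libraries, with colours, symbols and lines as in the plot of the ligands. *Ccr9* is highest in WT CLPs (8.61 to 15.3 FPKM), and *Cxcr4* in MPPs splits into KO 1 and KO 2 at 163 and 161 FPKM and KO 3 at 21.6 FPKM.

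The order of the 6 group means differed between genes. *Ccl3*, *Ccl4* and *Ccl9* had their highest mean in WT MPPs, which was 4.06, 2.32 and 6.89 times the lowest, found in CLPs. *Ccl6*, *Ccr2*, *Ccr7* and *Cx3cr1* had theirs in WT CD115- CDPs, where replicate 3 carried the mean for *Ccl6*, *Ccr2* and *Cx3cr1*, and *Ccr9* and *Cxcr4* in WT CLPs. The widest range was that of *Ccr2*, at 26.8 times between WT CD115- CDPs and KO-labelled CLPs, and in its order no pair of neighbouring groups was free of overlap. For *Ccl3* the neighbours WT and KO-labelled CD115- CDPs overlapped, as did KO-labelled CD115- CDPs and KO-labelled MPPs, and the other neighbours did not. For *Cxcr4* and *Cx3cr1* all neighbours overlapped, for *Ccr9* only the step from WT to KO-labelled CLPs was free of overlap, and for *Ccr7* only that from KO-labelled CLPs to WT MPPs. For *Ccl4* only the step below WT MPPs was free of overlap, for *Ccl9* only that from KO-labelled MPPs to KO-labelled CLPs, and for *Ccl6* those from WT to KO-labelled MPPs and from WT to KO-labelled CLPs. The tables of the 3 populations were made separately, so these levels are set side by side without a test.

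Markers of other cells were set beside these genes, and not all lists moved in the same direction. Among 10 monocyte and macrophage genes, such as *Lyz2*, *Ly6c2* and *Csf1r*, 8 were tested in MPPs. Of these, 5 were called lower in KO-labelled libraries, against 1.32% of all genes. The 10-gene sum was 577 to 592 FPKM in WT and 178 to 256 FPKM in KO-labelled libraries, beside the lower *Ccl3*, *Ccl6* and *Ccr2*. Of 10 neutrophil genes 4 were called lower there, with sums of 3490 to 3617 FPKM in WT and 1567 to 2587 FPKM in KO-labelled MPPs. Neutrophil sums overlapped between genotypes in CD115- CDPs, at 695 to 4520 FPKM in WT and 797 to 4447 FPKM in KO-labelled libraries (0 of 10 called). In CLPs they were 425 to 997 FPKM in WT and 241 to 415 FPKM in KO-labelled libraries. Of the 10 genes 0 were called there. With the block 6 were called lower, against 3.11% of all genes. In CD115- CDPs the monocyte sum was 355, 251 and 2409 FPKM in WT and 146, 128 and 388 FPKM in KO-labelled libraries. Of 9 tested genes 0 were called. With the block 4 were called lower, where 1.46% of all genes were. The monocyte sum was highest in the replicate 3 libraries, as were *Ccl6*, *Ccr2* and *Cx3cr1*. In CLPs the monocyte sum was 255 to 331 FPKM in WT and 65.1 to 111 FPKM in KO-labelled libraries. Of 7 tested genes 3 were called lower, against 2.84% of all genes. The 7 pDC genes, such as *Siglech*, were all called lower in CLPs, with sums of 1838 to 2101 FPKM in WT and 400 to 413 FPKM in KO-labelled libraries, beside the lower *Ccr9*. In MPPs, where *Ccr9* values overlapped, 0 of the 7 pDC genes were called and the sums were 165 to 182 and 154 to 165 FPKM. In CD115- CDPs *Ccr9* overlapped as well, but the pDC sums did not, at 519 to 920 FPKM in WT and 199 to 444 FPKM in KO-labelled libraries, with 1 of the 7 pDC genes called lower and 6 with the block. Of the other lists, 7 of 8 erythroid genes were called lower in MPPs (sums of 367 to 392 and 33.0 to 59.0 FPKM), as were 4 of 5 basophil and mast cell genes (191 to 215 and 63.0 to 102 FPKM). B cell sums were also lower there (49.1 to 55.4 against 15.9 to 30.8 FPKM, 1 of 7 called). So were megakaryocyte and platelet sums (20.05 to 22.8 against 8.39 to 11.0 FPKM, 1 of 3 tested genes called). In CLPs all 3 conventional DC genes tested were called lower, with sums of 60.6 to 77.3 FPKM in WT and 5.84 to 8.16 FPKM in KO-labelled libraries. T and NK cell sums were higher in KO-labelled libraries of CLPs (21.2 to 37.1 against 68.0 to 83.1 FPKM, 1 of 2 tested genes called). They were also higher in those of CD115- CDPs (28.1 to 36.6 against 70.5 to 73.9 FPKM, 0 of 3 called). The genes of this list were mixed. In CD115- CDPs 2 of the 3 tested had a negative log2 fold change, and 1 was called higher with the block, against 0.376% of all genes. In CLPs 1 gene of the list lay wholly below WT and 1 wholly above. No monocyte, neutrophil or pDC gene was at 0 in all libraries of a group, while *Cd3e* was at 0 in KO-labelled CLPs and *Cd209a* and *Hba-a2* in KO-labelled CD115- CDPs, and the part of these cells in the results was not tested.

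**Figure D4:**
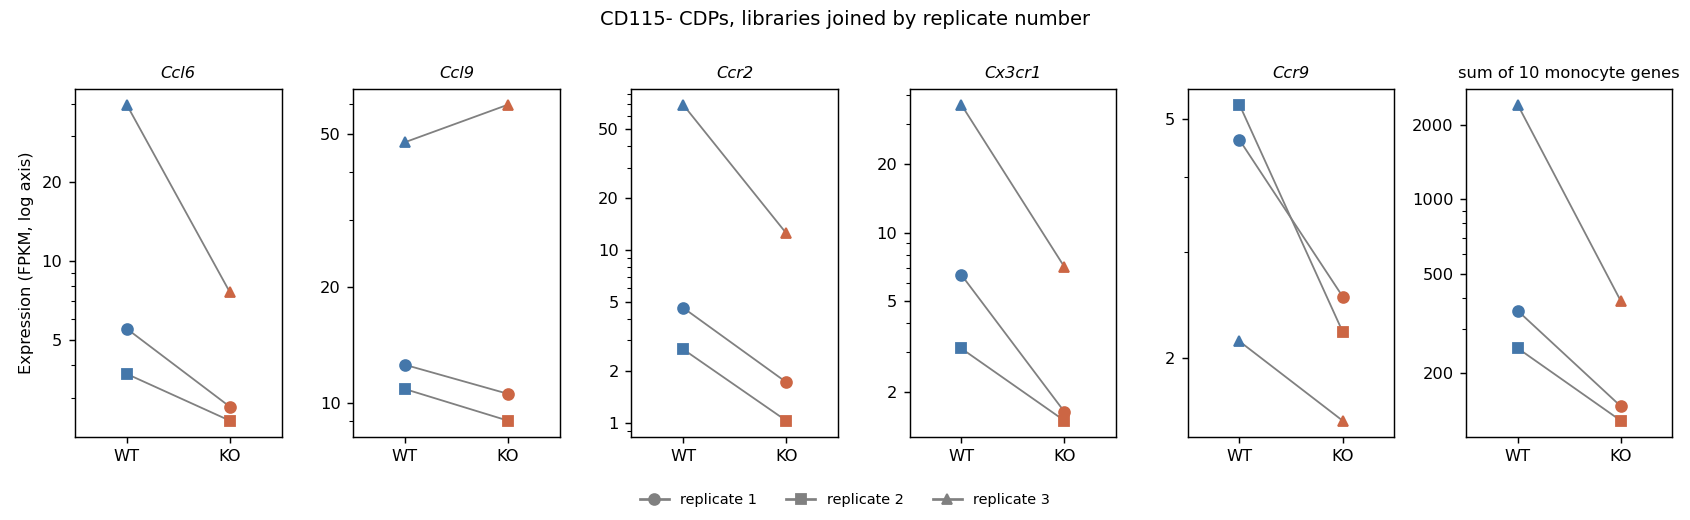
FPKM (log axis) of *Ccl6*, *Ccl9*, *Ccr2*, *Cx3cr1* and *Ccr9* and the summed FPKM of 10 monocyte and macrophage genes in CD115- CDPs, with WT and KO-labelled libraries of the same replicate number joined by a line. For *Ccr2*, *Cx3cr1* and *Ccl6* all 3 lines run downward and replicate 3 lies highest in both genotypes, as it does for the monocyte sum (2409 and 388 FPKM).

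No gene of the 9 passed the test of whether the KO effect differs between populations, in which 2.45% of 12421 genes did. *Ccl3* came closest, with an adjusted p of 0.058 and a log2 fold change that was more negative in MPPs than in CD115- CDPs by 0.96 ± 0.24 (SE) and than in CLPs by 0.92 ± 0.24. For *Ccr9* the log2 fold change in CLPs differed from that in MPPs by -1.32 ± 0.39, with an adjusted p of 0.186. With the replicate block, *Ccl3* (adjusted p 0.040) and *Ccr9* (0.045) passed, where 8.67% of all genes did. That fit also pairs the MPP libraries by number. Their same-numbered correlations were 0.038, 0.482 and 0.472, of which the first was below the 0.1 required for pairing. Over the alternatives the adjusted p ran from 0.0068 to 0.167 for *Ccl3* and from 0.045 to 0.344 for *Ccr9*. For *Cxcr4*, with values of opposite sign in MPPs and CLPs, the difference of -1.88 ± 1.02 had an adjusted p of 0.532.

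Among the other chemokine genes 1 of 12 ligands and 0 of 6 receptors tested were called lower in MPPs, against 1.32% of all genes, and 0 of 8 ligands and 2 of 5 receptors in CLPs, against 2.84%. In CD115- CDPs 0 of 13 ligands and 0 of 9 receptors were, and 0 were called higher in any population without the block. The ligand called in MPPs was *Ccl2*, which binds CCR2. It was 4.82, 3.30 and 3.42 FPKM in WT and 0.31, 0.20 and 0.13 FPKM in KO-labelled MPPs, with a log2 fold change of -1.99 ± 0.15 and an adjusted p of 0.0025. In CD115- CDPs *Cxcl10*, a chemokine induced by interferon, was called higher with the block, at 38.4, 49.7 and 15.0 FPKM in WT and 102, 115 and 23.7 FPKM in KO-labelled libraries (log2 fold change 1.07, adjusted p 0.020 with the block and 0.643 without), where 0.376% of all genes were. Of the receptors called lower in CLPs, 1 was *Cxcr3*, the receptor of CXCL9 and CXCL10. It was 3.63, 4.53 and 3.57 FPKM in WT and 0.59, 0.87 and 0.57 FPKM in KO-labelled CLPs, with no overlap, a log2 fold change of -1.55 ± 0.14 and an adjusted p of 0.00019.

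Of 30 genes that carry the signal of chemokine receptors, all tested in each population, 1 was called. *Pik3r6*, a regulatory subunit of PI3 kinase gamma, was called higher in CLPs, at 3.32, 4.40 and 4.56 FPKM in WT and 11.2, 9.91 and 7.66 FPKM in KO-labelled libraries (log2 fold change 1.05 ± 0.16, adjusted p 0.0039). That is 1 of 30, against 0.673% of all genes called higher in CLPs. With the block *Adrbk2*, which encodes a receptor kinase, was called lower in CD115- CDPs (log2 fold change -1.28, adjusted p 0.0063, or 0.408 without the block), where 1.46% of all genes were. In CLPs *Rac2*, *Rgs14*, *Pik3r5*, *Grk6* and *Rhoa* passed the adjusted p with lower values and *Elmo1* with higher values, and in MPPs *Plcb2* did with lower values, at log2 fold changes of -0.93 to 0.52 that are too small for a call. The share of all genes that passed the adjusted p was not counted. At an unadjusted p under 0.05 in limma there were 3655 of 12339 genes in CLPs and 2999 of 12372 in MPPs. Over the 30, the median log2 fold change came to -0.13 (MPPs), -0.24 (CD115- CDPs) and -0.07 (CLPs).

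The profile of each gene over the 18 libraries was compared with those of all other tested genes by the mean absolute difference of centred log2(FPKM + 1) values, as a description. *Ccl4* was closest to *Ier2* (0.180), *Jund* (0.202) and *Egr4* (0.242), against its own mean deviation of 0.493. *Ccl3* was closest to *Slc18a2*, *Ptrf* and *Ndrg1* (0.226 to 0.242), and to *Ccl4* among the members (0.438). *Ccl9* was closest to *Mpo* (0.262), *Lst1* and *Igsf6*, *Ccl6* to *Pi16* (0.302), *Emilin2* and *Serpinf1*, and *Ccr2* to *Clec7a* (0.257), *Mnda* and *Ms4a6b*. *Ccr9* was closest to *Tcf4* (0.222), *Slc44a1* and *Fyn*, and *Ccr7* to *Gpr18* (0.292), *Snai1* and *Ankrd9*. *Cx3cr1* was closest to *Hpse* (0.321), *I830077J02Rik* and *Zeb2os*, and *Cxcr4*, whose nearest genes were the most distant of all, to *Pik3ap1* (0.368), *Snx18* and *Syvn1*.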

How the data were processed

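RNA of sorted cells was read from 1 end for 50 bases. By the submitters' processing notes and the methods, the authors filtered the reads with SOAPnuke, used HISAT2 2.0.4 and Bowtie2 2.2.5 with mm10, and quantified genes with RSEM 1.2.12. The authors deposited FPKM in 1 table per population, used here as given. Read counts were not used. Depth was estimated from FPKM times transcript length less 49 bases, over low values of genes with 1 transcript in GENCODE vM21.

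The test was limma 3.58.1 (R 4.3.3, eBayes with a trend) on log2(FPKM + 1), a scale that understates changes of low genes, per population, for genes averaging 0.5 FPKM or more in its 6 libraries, with Benjamini-Hochberg adjustment over all of them. A call needed an adjusted p up to 0.05 and a log2 fold change of 1 or more in size. Differences between populations came from an F test on the interaction terms over 18 libraries. The study names its libraries biological repeats, and p-values measure the spread between them. Genotypes share replicate numbers in the titles. Deviations from group means of same-numbered libraries correlated at 0.437, 0.671 and 0.790 in CD115- CDPs and at 0.400, 0.329 and 0.131 in CLPs, all above 0.1, so a fit with the number as a block is given there where it matters. In CLPs WT 3 correlated more with KO 2 (0.234), and in CD115- CDPs WT 2 with KO 1 reached 0.663. Alternatives were a pseudocount of 0.1, no filter, a filter at 5 FPKM, TPM, median ratio scaling, no trend, the block and leaving out each library. Leaving out both replicate 3 libraries was added after seeing the data. The fits were tested on simulated data.

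The members and gene lists were chosen with earlier results of these data known. Genes named are the 9, *Trim33*, called genes of 3 other chemokine lists (at most 3 per direction and population), the 3 genes nearest in profile, and marker genes. *Cxcl10*, *Adrbk2* and the signalling genes below the fold needed for a call were named after their values were seen. The other receptor called lower in CLPs is not reported here. Summaries used Python 3.11.15 and pandas 2.3.3.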

Additional observations from a re-analysis of the deposited data

How the results depend on the processing

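Values for single genes were log2 fold changes and the adjusted p of the test between populations. Of them, 580 kept their side of the threshold under an alternative, and their direction where they were log2 fold changes. A further 15 passed only under the alternative, 5 lost their call (all for *Ccl6* in MPPs) and 12 changed sign, none of these a called value. Leaving out 1 library moved the members called lower in MPPs between 2 and 4, those called higher in MPPs between 0 and 1, those called lower in CLPs between 2 and 4, and those that passed the test of the difference between populations between 0 and 1. Over all genes in MPPs, calls ran from 43 lower and 11 higher of 12338 (without WT 3) to 548 and 368 of 12375 (without KO 3). In CLPs, genes called lower ran from 330 of 12310 (without WT 2) to 391 of 12302 (without WT 1). The test between populations was passed by 2.45% of 12421 genes with all libraries. In MPPs 1 member, *Cxcr4*, was called higher without KO 3 and also without both replicate 3 libraries. The replicate block gave 2 members called lower in CD115- CDPs and 2 that passed the test between populations, 1 of which (*Ccr9*, adjusted p 0.047) also passed without both replicate 3 libraries of CD115- CDPs. A filter at 5 FPKM left 1 member called in CLPs, because *Cx3cr1* was then not tested. The causes of the other changes were not tested.

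The log2 fold change of *Ccr9* in MPPs ran from -0.11 to 0.18 when 1 library was left out and was -0.11 without both replicate 3 libraries. In CD115- CDPs the values on leaving out 1 library ran from -0.013 to 0.49 for *Ccl4*, -0.89 to 0.59 for *Ccl9*, -1.20 to 0.039 for *Ccr7* and -0.58 to 0.66 for *Cxcr4*, which was 0.36 without both replicate 3 libraries. For *Ccl9* in CLPs they ran from -0.012 to 0.47, with -0.090 without both replicate 3 libraries.

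Median ratio scaling moved the median of all genes in MPPs by 0.10 on the log2 scale and rescaling to TPM moved that in CD115- CDPs by -0.12; no member changed sign under either. In MPPs the same-numbered libraries correlated at 0.038, 0.482 and 0.472, the first below the 0.1 required, so the numbers were not taken to pair them. There the block left 163 genes called lower and gave 25 called higher instead of 20, with the same 3 members. In CD115- CDPs the block moved the genes called from 8 to 178 lower and from 5 to 46 higher. It changed no other call of a member. With 3 libraries a group, wide intervals such as that of *Ccr2* in CD115- CDPs leave differences of several fold in either direction undetected.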
